A study of Mus musculus with 5 samples.

Results

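In fibroblasts of the mouse, 1965 short stretches of the autosomes held both the transcription factor E2F4 and RNA polymerase II (RNA Pol II), with E2F4 at least as enriched as RNA Pol II. They are called E2F4-dominant sites here. They were chosen from reads counted in bins of 500 bp on chromosomes 1 to 19. A bin was kept with at least 8 E2F4 reads, at least 10 RNA Pol II reads, a fold over background of at least 3 for each, and an E2F4 fold no lower than the RNA Pol II fold. The fold is the share of a library's reads in the bin over the share of the background reads there, with 1 read added to each count. Adjacent bins were joined, and 2339 bins gave the 1965 sites, which cover 1.17 Mb. Of 3915043 bins with any read, 0.0597% met the rule, and of the 10390 bins that held both proteins (0.265%), 22.5% did so.

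The libraries came from secondary mouse embryonic fibroblasts with doxycycline-inducible Klf4, Sox2 and Oct4. Induced pluripotent cells with these cassettes and an Oct4-selectable cassette had been injected into BDF2 blastocysts. The chimeras were dissected on day 13.5 of gestation, and 48 hours of puromycin (2 µg/ml) left fibroblasts that descend from the injected cells. Serum is given as 10% for every library. Whether doxycycline was given is not stated in the sources used here. Chromatin immunoprecipitation used antibodies to E2F4 (SC-1082), RNA Pol II (8WG16) and the histone mark H3K27me3 (AB6002), with 1 library each, and 2 libraries of whole cell extract without antibody (WCE) served as background.

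Counting each position and strand once, the autosomes held 1971874 E2F4, 3111606 RNA Pol II and 9483163 H3K27me3 reads, against 417799 in WCE replicate 1 and 11226593 in WCE replicate 2. There are no replicates for any antibody, so every interval below is a 95% interval of counting error alone. The p-values below likewise cover counting error alone: they take each read as independent and leave out the spread between sites. Since the amplified fragments carry no molecular identifiers, reads may repeat a molecule. WCE replicate 1 stands apart: it is shallow, and its reads were thinner at the sites than around them, where those of WCE replicate 2 were denser. It supplied 168 of the 43802 background reads in the sites, and 1824 sites held none of its reads. Without it 1958 sites met the rule, and with it as the only background 1432 did.

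The E2F family controls genes of the cell cycle. E2F4 lacks strong activating power of its own and acts mainly as a repressor, together with the pocket proteins p107 and p130, at promoters of genes for DNA replication and mitosis in resting and early G1 cells. Antibody 8WG16 recognises the C-terminal repeat domain of the largest RNA Pol II subunit, chiefly in its weakly phosphorylated form, which is found at promoters. H3K27me3 is laid down by the Polycomb repressive complex and marks silenced genes. Sites are given by position on build mm8, as no gene annotation of that build was used, and no gene is named.

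The median site held 56 E2F4 reads (quartiles 23 and 131, range 8 to 589) and 42 RNA Pol II reads (quartiles 22 and 76, range 10 to 368). Its E2F4 fold was 16.2 (quartiles 8.63 and 31.0, highest 171) and its RNA Pol II fold 7.57 (quartiles 5.10 and 11.8, highest 71.1). These values chose the sites and describe them only. The E2F4 fold was 1.73 times the RNA Pol II fold at the median site, and 26 times at the most. Summed over all sites, E2F4 reads stood at 24.8 times WCE (24.5 to 25) and RNA Pol II reads at 9.44 times (9.33 to 9.54). Over WCE replicate 1 alone, with 168 reads in the sites, they stood at 232 and 88.3 times. At the 6473 sites where both proteins passed but RNA Pol II had the higher fold, called RNA Pol II-dominant here, the sums were 6.41 times (6.37 to 6.46) and 20 times (19.8 to 20.1).

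Which of the proteins has the higher fold does not depend on WCE, since the same WCE count divides both. It does depend on how the antibody libraries are scaled to each other. By totals, the interval of the E2F4 to RNA Pol II ratio lay above 1 at 1090 sites (55.5%), while at the other 875 sites (44.5%) it reached 1, so their order is not settled by counting. With libraries scaled on the median bin of 20 kb, RNA Pol II folds were higher by 1.62 and E2F4 folds by 0.18 on the log2 scale, and 706 sites met the rule (7.02% of the bins with both proteins), 623 of which overlapped sites described here.

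**Figure D1:**
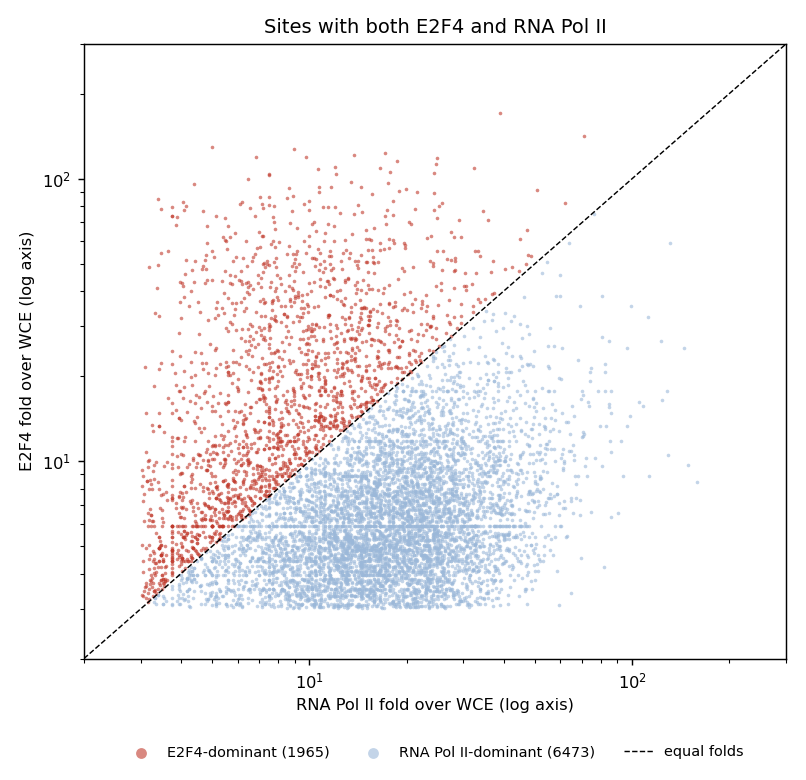
Each point is a site with both proteins, with its RNA Pol II fold over WCE on the horizontal axis and its E2F4 fold on the vertical axis (both log axes). The 1965 E2F4-dominant sites lie above the dashed line of equal folds and the 6473 RNA Pol II-dominant sites below it, and the cloud is continuous across the line.

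The edges of the rule fall within that cloud. At the line of equal folds, the nearest bins inside had ratios of 1.001 to 1.004 and the nearest outside 0.9994. One inside, on chromosome 4 from 101145001 to 101145500, held 32 E2F4 and 51 RNA Pol II reads, and one outside, on chromosome 13 from 41616501 to 41617000, held 18 and 29. At the minimum of E2F4 reads, 51 bins held 8 and 36 bins that met all else held 7. At the minimum of RNA Pol II reads, 46 bins held 10 and 61 held 9, among them a bin on chromosome 2 from 4929501 to 4930000 with 69 E2F4 reads. The RNA Pol II fold was 3.03 in the nearest bins inside and 2.99 outside. The minimum E2F4 fold removed no bin, because a bin with an RNA Pol II fold of 3 and a higher E2F4 fold passes it anyway.

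Most sites were narrow: 1612 (82.0%) were 1 bin long, 334 were 1000 bp, 17 were 1500 bp and 2 were 2000 bp. The 353 longer sites held more of both proteins, with a median of 192 E2F4 and 90 RNA Pol II reads, against 41 and 34 in the 500-bp sites. Across the 1965 sites, E2F4 reads per kb had a Spearman rho of 0.0705 with those of H3K27me3 and of 0.511 with those of WCE replicate 2. H3K27me3 and WCE replicate 2 had a rho of 0.249. These are descriptions over places of the same libraries, and the minimum of E2F4 reads bounds the values of 1 of them. The minimum fold also ties E2F4 to WCE replicate 2: a bin rich in WCE reads passes only with more E2F4 reads. The rho of 0.511 is thus partly set by the rule.

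On each chromosome, the site with the most E2F4 reads held 320 to 589 of them (median 431), against 30 to 233 RNA Pol II reads (median 87). Their E2F4 folds were 31.4 to 123 and their RNA Pol II folds 4.11 to 18.9. The site richest in E2F4 lay on chromosome 1 from 90108501 to 90109500. It held 589 E2F4, 233 RNA Pol II and 26 H3K27me3 reads, against 0 and 110 reads in the WCE replicates, and so the deepest WCE signal of these 19 sites. On chromosome 15, 57965001 to 57965500 held 539 E2F4 and 118 RNA Pol II reads against 25 WCE reads, which gave the highest E2F4 fold of the 19, at 123.

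Chromosome 4 from 126059001 to 126059500 followed with a fold of 119, from 464 E2F4 reads against 22 WCE reads. RNA Pol II was lower there, at 41 reads and a fold of 6.83. Chromosome 18 from 34749501 to 34750000 held 348 E2F4 reads against 18 WCE reads, a fold of 108. There the E2F4 site sat beside a larger RNA Pol II signal: 53 RNA Pol II reads lay in the site and 133 in the 1 kb to its left.

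RNA Pol II around these 19 sites took different forms. It ended with the site on chromosome 12 from 70086501 to 70088000, where 134 RNA Pol II reads lay inside, 3 in the 1 kb to the left and 0 in the 1 kb to the right. Elsewhere it continued beyond the site. Chromosome 9 from 13577501 to 13578500 held 320 E2F4 and 141 RNA Pol II reads, with 126 and 45 RNA Pol II reads in the 1 kb to the left and right and summits 672 bp apart. Chromosome 13 from 23768501 to 23769500, with 520 E2F4 and 171 RNA Pol II reads, had 258 RNA Pol II reads 1 to 3 kb to the right of its E2F4 summit and 19 to the left.

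**Figure D2:**
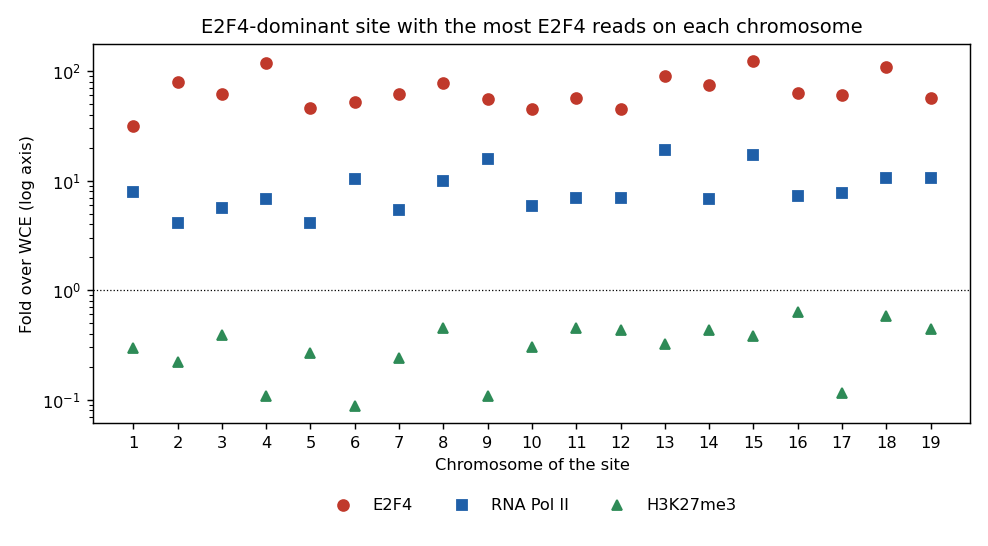
Fold over WCE (log axis) of E2F4, RNA Pol II and H3K27me3 at the E2F4-dominant site with the most E2F4 reads on each of chromosomes 1 to 19. E2F4 folds lie between 31.4 and 123, RNA Pol II folds between 4.11 and 18.9 and H3K27me3 folds between 0.0877 and 0.631, so the 3 do not overlap.

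The highest ratios of E2F4 fold to RNA Pol II fold came from sites with an RNA Pol II count close to the minimum. Chromosome 12 from 8973501 to 8974000 held 263 E2F4 and 15 RNA Pol II reads against 11 WCE reads, a ratio of 26. Chromosome 9 from 65688001 to 65688500 held 301 and 18 reads against 20 WCE reads, a ratio of 25.1. Chromosome 1 from 141271001 to 141271500, with 357 and 24 reads, had 22.6. Chromosome 3 from 88167501 to 88168000, with 274 and 19 reads, had 21.7, and chromosome 2 from 118505501 to 118506000, with 294 and 21 reads, had 21.2. In all 5 the RNA Pol II fold was between 3.39 and 4.99, near the minimum of 3, and the summits of both proteins lay 53 to 140 bp apart.

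Among the 19 sites of 1500 bp or more, the ratio ran from 1.17 to 8.39 with a median of 2.95. Of these, 2 were 2000 bp long and 17 tied at 1500 bp; the 5 named here are the longer pair and the first 3 of the tie by chromosome and position. Chromosome 3 from 137801501 to 137803500 held 276 E2F4 and 264 RNA Pol II reads against 60 WCE reads. Chromosome 11 from 86924501 to 86926500 held 256 and 101 against 74 WCE reads. Chromosome 1 held a pair of them, with 370 and 292 reads from 181639501 to 181641000 and 466 and 248 from 193275501 to 193277000. Chromosome 2 from 121647001 to 121648500 held 188 E2F4 and 254 RNA Pol II reads, and its E2F4 to RNA Pol II interval of 0.962 to 1.42 held 1.

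Single bins are given for 2 extreme sites, the richest in E2F4 and the highest in ratio, where E2F4 lay mostly in 1 or 2 neighbouring bins. Around the chromosome 1 site at 90108501, successive bins of 500 bp held 3, 3, 30, 581, 8 and 4 E2F4 reads, and 5, 4, 33, 220, 13 and 1 RNA Pol II reads, starting 1500 bp to the left of the site's first bin. Around the site with the highest ratio, on chromosome 12 from 8973501, the bins from 500 bp to the left to 1000 bp to the right held 2, 263, 65 and 3 E2F4 reads and 0, 15, 4 and 0 RNA Pol II reads. The bin with 65 E2F4 reads there is no member, because it held too few RNA Pol II reads.

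**Figure D3:**
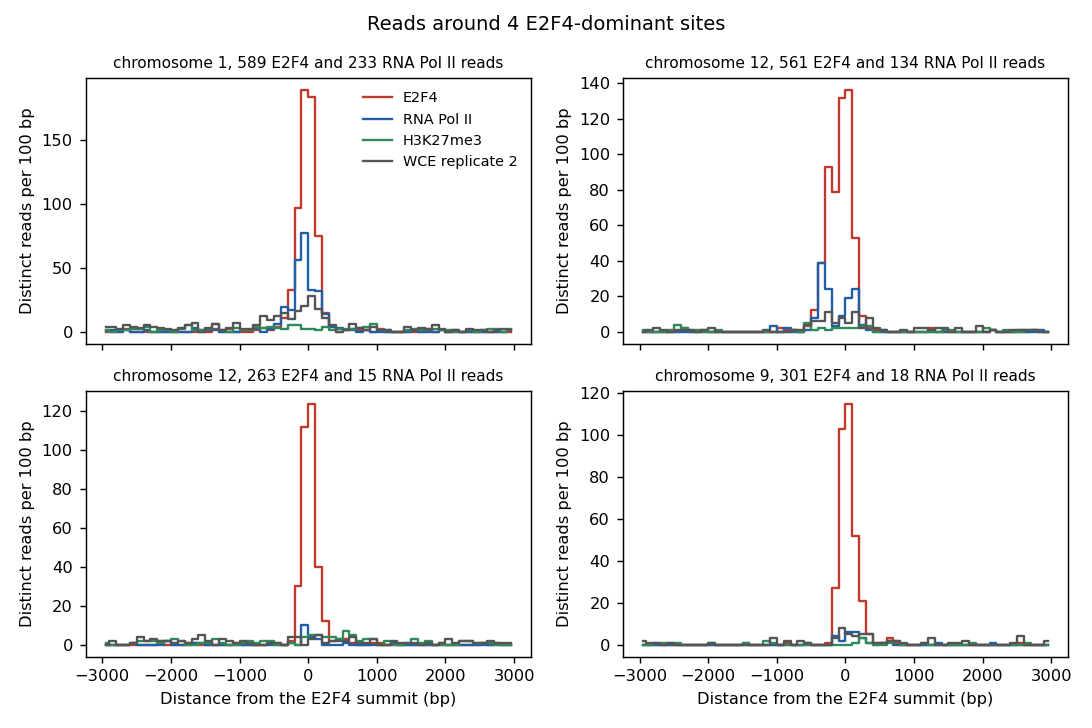
Distinct reads per 100 bp within 3000 bp of the E2F4 summit at 4 sites, the upper pair with the most E2F4 reads (589 and 561) and the lower pair with the highest E2F4 to RNA Pol II ratios (26 and 25.1). E2F4 peaks at each, over a wider stretch at the chromosome 12 site with 561 reads. RNA Pol II peaks near the E2F4 summit at the chromosome 1 site with 589. At the site with 561 it has 39 reads in the 100 bp from -400, 3 from -200 and 24 from 100, with summits 317 bp apart. In the lower pair RNA Pol II is low, with 15 and 18 reads in the sites, at folds over WCE of 4.99 and 3.39.

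A bin of 500 bp offers 1000 positions on the 2 strands, and the 581 distinct reads of the chromosome 1 bin fill most of them, so removing repeats flattens the strongest sites. That site held 2815 E2F4 reads with repeats kept, against 272 RNA Pol II reads. In all sites, 37.4% of the E2F4 reads were repeats, compared with 19% of E2F4 reads on the autosomes and 11.0% of the RNA Pol II reads in the same sites. With repeats kept, 2062 sites met the rule and 1845 of them overlapped sites described here. Whether these repeats are separate molecules was not tested.

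Along the E2F4 to RNA Pol II ratio, E2F4 varied over a wider range than RNA Pol II. In 799 sites with a ratio of 1 to 1.5, medians were 25 E2F4 and 33 RNA Pol II reads. In 343 sites at 1.5 to 2 they were 44 and 41, and in 488 sites at 2 to 4 they were 88 and 54.5. In 335 sites at 4 or more they were 210 and 44. The median RNA Pol II fold lay between 7.07 and 8.16 over these 4 classes, while the median E2F4 fold went from 8.86 in the lowest to 48.2 in the highest. The classes are cut from these same reads, so this is a description.

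The summits of E2F4 and RNA Pol II lay within the width of 1 summit window at about as many sites as not. A summit is the densest 200 bp, looked for within the site for E2F4 and up to 1 kb beyond it for RNA Pol II. The summits lay a median of 185 bp apart, at 1051 sites (53.5%) within 200 bp and at 314 (16%) over 500 bp. At RNA Pol II-dominant sites the median was 105 bp. In the 1108 sites with no RNA Pol II-dominant bin within 2 kb, a split added after the data were seen, the median distance was 125 bp and 763 (68.9%) had summits within 200 bp. In the 779 sites that touched such a bin the median distance was 284 bp. The E2F4 summit is confined to the site and the RNA Pol II summit is not, and the sets are divided by which fold is higher. These differences in distance are thus partly set by the rule and describe the sets only.

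Around the E2F4 summits of these sites, RNA Pol II reads were spread more widely than E2F4 reads. Of the E2F4 reads within 1 kb of the E2F4 summits, 83.9% (83.7 to 84.1) lay within 250 bp, whereas 48.8% (48.6 to 49.0) of the RNA Pol II reads did. At RNA Pol II-dominant sites these shares were 64% and 62.2%. The summits were placed on E2F4 reads, which raises the E2F4 share in both sets. The rule also keeps the bins with the higher E2F4 fold and leaves RNA Pol II-richer neighbours to the other set. The contrast between the proteins is thus partly set by the choice of sites and is a description. For WCE replicate 2 the share was 40.4% at the E2F4-dominant and 39.6% at the RNA Pol II-dominant sites.

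To look at RNA Pol II on either side, sites were turned so that the side with more RNA Pol II reads at 1 to 3 kb from the E2F4 summit lay to the right, where that side had at least 2 times the reads of the other and both together at least 10. This could be done for 753 of the 1965 sites (38.3%), 365 pointing towards higher and 388 towards lower coordinates, and for 2829 of the 6473 RNA Pol II-dominant sites (43.7%). How often counting alone gives a 2-fold split of as few as 10 reads was not tested. The turning used RNA Pol II reads 1 to 3 kb away. Places just within 1 kb adjoin these and can share their signal, so a higher right side there is partly set by the turning. RNA Pol II density was 258 reads per kb per 10000000 reads at 750 to 1000 bp to the right and 31.9 at the same distance to the left. In the turned RNA Pol II-dominant sites it was 204 and 50.3. The RNA Pol II summit lay towards the right in 567 of the 753 sites (75.3%), with a median offset of 224 bp (quartiles 9 and 569). In 54 of them it lay over 1 kb from the E2F4 summit, among the reads that decided the turning, so this direction is partly set by the turning. In the turned RNA Pol II-dominant sites the median offset was 70 bp, and 66.2% lay to the right.

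E2F4 leaned the same way in the turned sites, with 91.1 reads per kb per 10000000 at 750 to 1000 bp to the right and 16 to the left. The libraries that target neither protein did so to a smaller degree, H3K27me3 with 11.4 to the right and 8.07 to the left and WCE replicate 2 with 22.7 and 12. WCE replicate 1 had 4.70 and 6.10. In the turned RNA Pol II-dominant sites, E2F4 had 64.1 to the right and 17.6 to the left. The part of the chromatin preparation in the lean of E2F4 and RNA Pol II was not tested.

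**Figure D4:**
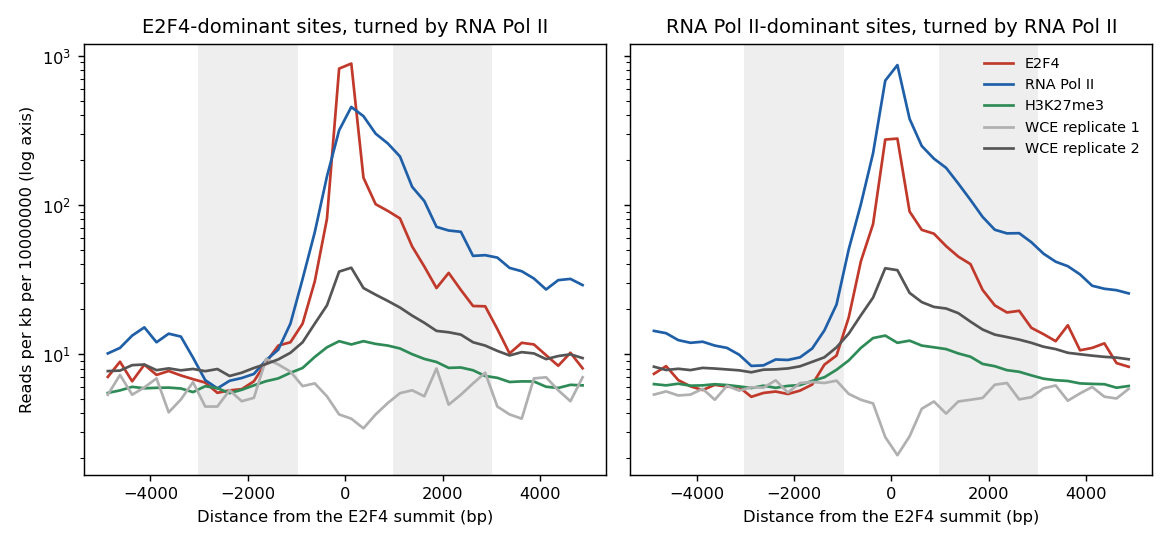
Read density per kb per 10000000 reads (log axis) around the E2F4 summit for the 5 libraries, at 753 E2F4-dominant sites on the left and 2829 RNA Pol II-dominant sites on the right, turned so that the side richer in RNA Pol II is to the right. The grey bands mark the 1 to 3 kb that decided the turning. In the 250 bp to the right of the summit E2F4 stands at 885 and RNA Pol II at 453 in the left panel, and in both panels RNA Pol II extends to the right.

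Beyond the sites, RNA Pol II was denser than in the flanks, which are the bins 5 to 20 kb away that lie more than 1 kb from any bin with both proteins. The bins at 1 to 3 kb were likewise counted only where they lay more than 1 kb from any bin with both proteins. RNA Pol II in neighbouring stretches with both proteins is therefore left out of these values. In the bins kept at 1 to 3 kb, RNA Pol II density was 1.4 times that of the flanks (1.38 to 1.42). For WCE replicate 2 the value was 1.11, and for E2F4 it was 1.23. Around RNA Pol II-dominant sites, RNA Pol II stood at 2.13 times (2.12 to 2.15) and WCE replicate 2 at 1.18. The value for the E2F4-dominant sites varied little between the 4 classes of the E2F4 to RNA Pol II ratio, from 1.28 to 1.39, with flanks shared by classes counted in each.

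Of the 7620 runs of adjacent bins with both proteins, 1186 (15.6%) were E2F4-dominant throughout, 766 (10.1%) held bins of both kinds and 5668 (74.4%) were RNA Pol II-dominant throughout. Thus 779 of the 1965 sites (39.6%) touched an RNA Pol II-dominant bin and are the E2F4-richer part of a longer stretch with both proteins. This share was 43.8% in the lowest and 34.3% in the highest class of the ratio. The place of a site also depends on where the bins start: with bins moved by 250 bp there were 1918 sites, of which 1352 overlapped sites described here.

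The sites were scattered along the chromosomes, with a median of 152 kb to the nearest other one (quartiles 50.0 and 514). Another lay within 5 kb of 109 sites (5.55%). Chromosome 11 held the most, 178 or 1.46 per Mb, and chromosome 18 the fewest, 51. Per Mb the lowest was chromosome 3, at 0.538. Set against protein-coding genes of assembly GRCm38.p6, the chromosomes held 7.39 (chromosome 7) to 12.6 (chromosome 8) sites per 100 genes. The E2F4-dominant share of bins with both proteins was 19.7% (15.3 to 24.6) on chromosome 18 and 27.6% (22.7 to 33.0) on chromosome 13, with a median of 22.5% over the 19 autosomes. The intervals of these extremes overlap.

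H3K27me3, which took no part in choosing the sites, was below the summed WCE at most of them, and this rests on WCE replicate 2. The WCE reads did take part in the choice, so ratios of H3K27me3 to WCE are not independent of the rule. The 13606 H3K27me3 reads in the sites were 0.381 times the WCE reads (0.374 to 0.389), and in the same sites they were 0.369 times WCE replicate 2 (0.362 to 0.376) and 3.57 times WCE replicate 1 (3.06 to 4.18). Over the summed WCE, 141 of the 1965 sites (7.18%) had an H3K27me3 fold above 1. The median site held 6 H3K27me3 reads (quartiles 3 and 9), and 50 sites held none. Only 21 sites, 1.07% (0.663 to 1.63), overlapped a bin of 2 kb enriched in H3K27me3 over WCE (ratio 3 or more, adjusted p under 0.01, exact conditional binomial test, one-sided, Benjamini-Hochberg). Of all bins tested, 2.32% were so enriched. The RNA Pol II-dominant sites were similar: 0.927% (0.708 to 1.19) overlapped such a bin, and 6.13% (5.56 to 6.75) had an H3K27me3 fold above 1. The share of E2F4-dominant sites in such bins was 0.279% with WCE replicate 1 as the only background. There both the sites and the enriched bins were chosen anew. The share of all bins enriched under that background is not given here, so 0.279% cannot be set against 2.32%. Under stricter limits (12 E2F4 and 15 RNA Pol II reads at fold 5) the share of E2F4-dominant sites was 0.503%.

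Relative to its own flanks, however, H3K27me3 was denser at the sites, at 2.00 times (1.97 to 2.04). The two-sided exact conditional binomial test gave a p-value too small for double precision, written as 0. With WCE replicate 1 as the only background, which chose 1432 sites, it was 3.30 times. Over the same bins WCE replicate 2 stood at 4.63 times its flanks (4.59 to 4.68) and WCE replicate 1 at 0.621 times (0.530 to 0.723). The H3K27me3 library was thus higher at the sites than around them, less so than WCE replicate 2, while WCE replicate 1 was lower at the sites. The part of the background in the H3K27me3 value was not tested.

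The E2F4 sites without RNA Pol II differed in this respect. These 1833 sites passed the same E2F4 limits in bins that failed those for RNA Pol II. H3K27me3 relative to flanks was 2.00 at E2F4-dominant sites and 2.46 (2.42 to 2.5) at sites lacking RNA Pol II, a ratio of 0.814 (0.796 to 0.833), which passed the threshold in an exact test of Fisher's kind with lengths as an offset (adjusted p = 4.7e-69 by Benjamini-Hochberg over 3 tests, this one added after the data were seen). Over the summed WCE the values were 0.381 and 0.812 (0.796 to 0.827), over WCE replicate 1 alone they were 3.57 and 1.75, and 1.07% and 6.87% (5.76 to 8.13) of the sites lay in enriched bins. The sites lacking RNA Pol II also differed in WCE relative to flanks, with 0.621 and 2.35 for replicate 1 and 4.63 and 3.15 for replicate 2. These settings choose the sites anew: the ratio turned round, to 1.13, with WCE replicate 1 as the only background, and was 0.984 (adjusted p = 0.328, same exact test) with scaling on background bins. Repeats kept gave 0.968 (0.949 to 0.987) and stricter limits 0.925 (0.897 to 0.953), again with sites chosen anew. With flanks at 20 to 50 kb and the same sites it was 0.680 (0.664 to 0.695). The direction of the ratio thus depends on the background chosen, and its size also on repeats, limits and flanks. Its p-values pool the reads of 1 H3K27me3 library and do not measure the spread between sites. How many flank bins these sets share is not given here.

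Between the E2F4-dominant and the RNA Pol II-dominant sites the difference was small and did not hold. H3K27me3 stood at 2.00 times its flanks in the first and 2.08 times (2.06 to 2.09) in the second, a ratio of 0.965 (0.946 to 0.984, adjusted p = 2.9e-04, same exact test). The sets shared 51696 flank bins, 49.9% of those of the E2F4-dominant sites. The ratio was above 1 with bins moved by 250 bp (1.03), with scaling on background bins (1.07) and with WCE replicate 1 as the only background (1.48), and with repeats kept it was 0.993 (adjusted p = 0.438, same exact test). With stricter limits it was 0.982 (adjusted p = 0.149, same exact test). No direction can be given for it. WCE replicate 2 stood at 4.63 and 4.69 times its flanks in these sets.

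**Figure D5:**
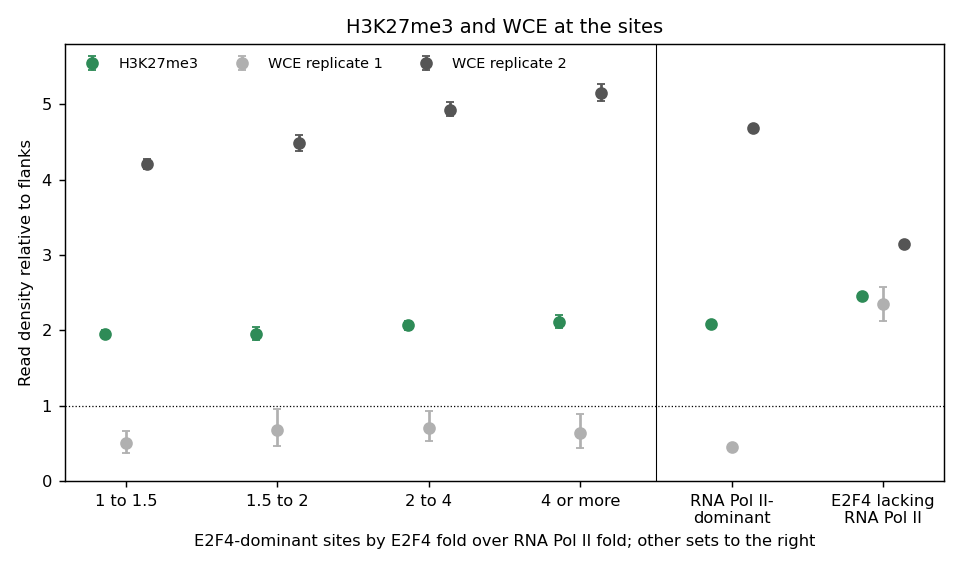
Read density relative to flanks (linear axis) of H3K27me3 and the WCE replicates at the E2F4-dominant sites, in 4 classes of the E2F4 to RNA Pol II ratio, and at the other sets of sites. Bars are exact 95% intervals of counting error. H3K27me3 lies between 1.96 and 2.11 in the 4 classes and WCE replicate 2 between 4.21 and 5.15.

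A few sites did carry H3K27me3 well above WCE. The highest fold, 13.5, was on chromosome 11 from 97445501 to 97446000, with 14 E2F4, 22 RNA Pol II and 32 H3K27me3 reads against 2 WCE reads, so that its H3K27me3 to WCE interval runs from 5.01 to 169. Better measured was chromosome 12 from 85766001 to 85766500, where 110 H3K27me3 reads stood against 17 WCE reads (4.74 to 14.1), with 14 E2F4 and 20 RNA Pol II reads. Chromosome 2 from 173927001 to 173927500 had 26 H3K27me3, 17 E2F4 and 15 RNA Pol II reads against 3 WCE reads. Chromosome 5 from 135031501 to 135032000 had 59, 9 and 12 against 10 WCE reads. These 4 had E2F4 to RNA Pol II intervals that held 1, so neither protein can be called the higher there. The fifth, on chromosome 8 from 90848501 to 90849000, had 38 H3K27me3, 45 E2F4 and 15 RNA Pol II reads against 8 WCE reads, and its E2F4 to RNA Pol II interval lay above 1 (2.59 to 9.14). These data do not show whether the mark and the proteins occurred together in 1 cell.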

How the data were processed

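The authors deposited lists of where reads aligned, with a sign for the strand, which are another kind of value than counts or scores. Per the file headers, reads were placed on mm8 with bowtie (-k 2 -m 2 -n 2 -e 70; the seed, -l, was 36 for H3K27me3 and WCE replicate 2 and 26 elsewhere); the submitters' processing notes name Bowtie, with no version. Per the labels' protocols, extracts sheared to a mean of 500 bp were amplified by 18 cycles and fragments of 150 to 350 bp taken.

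Positions were read as the leftmost base counted from 0, with read lengths of 26 and 36 bp from the headers. From the section of reads with 1 placement, a position was used once on each strand, and its 5′ end was shifted 60 bp downstream. The sites, lists and tests were chosen with earlier results of these data known. The 3 tests were on H3K27me3 alone; the test of Fisher's kind used the noncentral hypergeometric distribution, because compared lengths differ. A count of 0 allows up to 1.5e-04% of E2F4 and 7.2e-04% of WCE replicate 1 reads (3 counts of the total). Named sites are those with the most E2F4 reads on each chromosome and the 5 highest by E2F4 to RNA Pol II ratio, by length and by H3K27me3 fold (at least 10 H3K27me3 reads). Scripts used Python 3.11.15, NumPy 2.4.6 and SciPy 1.17.1 and were tested on simulated data. Alternatives are given at the end.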

Additional observations from a re-analysis of the deposited data

Results flagged for a closer look

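Reads listed at 2 places, which the rule and the comparisons above leave out, were also denser in the E2F4-dominant sites than WCE. This was flagged because these reads lie outside the main measurement. For E2F4 and RNA Pol II they come from the same libraries that chose the sites. Their density there is thus partly set by the rule and is a description. E2F4 had 6044 such reads in the sites against 1114 in WCE, a ratio of 19.2 (18.0 to 20.5) by the totals of these reads, and RNA Pol II had 4870, a ratio of 12.5 (11.7 to 13.4). H3K27me3 had 405, a ratio of 0.610 (0.543 to 0.684). At least 1 such E2F4 read lay in 971 of the 1965 sites, and 136 sites held 8 or more. The most, 350 E2F4 and 491 RNA Pol II reads against 237 WCE reads, were on chromosome 17 from 3040501 to 3041000, a site chosen after its values were seen. Which of its places such a read came from is not known.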

How the results depend on the processing

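H3K27me3 was denser at the sites than in flanks under all alternatives run, from 1.74 (flanks 20 to 50 kb) to 3.30 (without WCE replicate 2). Over WCE in the same sites it was 0.369 to 3.57 without 1 WCE replicate, added after the data were seen. The ratio to flanks set against RNA Pol II-dominant sites was 0.993 with repeats kept, 0.982 with stricter limits and 1.03 with bins moved. It was 1.07 with scaling on background bins and 0.972 to 1.48 without 1 WCE replicate. Set against sites lacking RNA Pol II, the ratio was 0.968 with repeats kept, 0.925 with stricter limits and 0.984 with background scaling. It was 0.680 with flanks 20 to 50 kb and 0.816 to 1.13 without 1 WCE replicate. Scaling on background bins also gave 706 sites and a share of 7.02% of joint bins. Stricter limits (12 and 15 reads at fold 5) gave a share of 29.0%, 0.503% of sites in H3K27me3 bins and 162 bp between summits. RNA Pol II density at 1 to 3 kb was 1.33 with repeats kept, 1.37 with 5′ ends moved 90 bp, 1.47 with bins moved, 1.31 with background scaling, 1.26 with stricter limits, 1.60 with the far flanks and 1.37 without neighbouring RNA Pol II-dominant bins, a split added after the data were seen, where summits lay 125 bp apart. Without 1 WCE replicate, the count was 1432 to 1958, the share 22.9% to 24.7%, the share in H3K27me3 bins 0.279% to 0.970%, the distance 164 to 184 bp and the density 1.35 to 1.38. The bins enriched in H3K27me3 were also called anew in these settings. Of 34 named sites, 7 had RNA Pol II above E2F4 with background scaling, by log2 ratios of -0.72 (chromosome 3, 137801501), -0.44 (chromosome 1, 181639501), -1.21 (chromosome 2, 121647001), -1.40 (chromosome 11, 97445501), -0.61 (chromosome 2, 173927001), -1.27 (chromosome 12, 85766001) and -1.16 (chromosome 5, 135031501). The cause of these changes was not tested. No paired analysis was possible because each antibody has 1 library.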

Other observations

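On chromosome X, which the rule leaves out, 62 sites met the same limits. Their medians were 48 E2F4 and 33 RNA Pol II reads against 12.5 WCE reads. Of the 246 bins on X with both proteins, 76 were E2F4-dominant, 30.9% (25.2 to 37.1), where the autosomal share was 22.5%. Folds on X were computed with the autosomal totals. The libraries held 43153 distinct E2F4 and 64984 distinct RNA Pol II reads on X, against 27554 and 190987 in the WCE replicates. Per 100 protein-coding genes of GRCm38.p6, X held 6.42 sites.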
